A study of Mus musculus with 6 samples.

Results

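The clustered protocadherins are neighbouring genes for cadherin-like adhesion proteins of the cell surface, arranged in alpha, beta and gamma clusters on mouse chromosome 18. The rows whose symbol named an alpha, beta or gamma cluster member were taken, which gave 58 of the 23366 genes in the count tables, 14 alpha, 22 beta and 22 gamma. The libraries came from palatal shelves of mouse embryos at stage E14.25, the paired outgrowths that fuse into the secondary palate. The wild type group held 3 libraries, numbered 2, 3 and 4, and the labels give no allele or Cre for it. The knockout group held 3 libraries, numbered 1, 2 and 3, of the genotype Kmt2d fl/fl Wnt1-Cre, in which a Wnt1 promoter drives Cre recombinase in the neural crest lineage. Epithelium, endothelium, blood and muscle of the shelf do not come from that lineage, and counts from whole shelves hold their RNA too. The comparison asks how loss of the histone methyltransferase KMT2D from the neural crest alters expression in the palate, here for a gene family best known from neurons.

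In each alpha and gamma transcript, a large variable first exon with its own promoter is spliced to constant exons that all genes of the cluster share. The variable exon encodes the extracellular cadherin repeats, the transmembrane segment and part of the cytoplasmic tail. Beta genes have a single exon and no constant part. In neurons, CTCF and cohesin loop a distant enhancer to a few promoters, so that single cells show different combinations of isoforms, and homophilic binding between matching combinations lets branches of the same neuron recognise and avoid each other. Members with C in the symbol (Pcdhac and Pcdhgc) are less subject to this stochastic choice than the other isoforms. Within an array, the variable exons of downstream members lie inside the primary transcripts that start at upstream members.

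This structure limits what a count can show. In the GENCODE models of 56 of the 58 members, which belong to another genome build and were used for lengths and order only, exons not shared with another member made up 45.1% to 51.4% of alpha and 54.1% to 60.5% of gamma transcripts. For beta genes the range was 90.3% to 100%. Reads in constant exons cannot be assigned to a member, and the overlap rule used in counting is not given in the sources used here. Reads were 25 bases long, so similarity between members matters as well. The share of 25-base windows of unshared exon found identically in another member was 0% to 0.0347% in the C-type members, 0.878% to 13.1% in gamma A, 12.2% to 28.5% in gamma B, 0% to 29.0% in beta and 20.4% to 41.3% in the remaining alpha members. Pcdhgc3 and Pcdhac2 shared no such window with another member. No sequence of these genes is shown.

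Read pairs assigned to genes ranged from 12721979 to 24916079 per library. Knockout replicate 2 stood apart, with 47.5% of its listed pairs falling in no annotated gene, where the remaining libraries had 12.3% to 18.1%. It also had 10160 CPM of Ttn, the giant muscle protein titin, against 66.3 to 191 CPM elsewhere, and the other 6 skeletal muscle markers summed to 1093 CPM against 169 to 411 CPM. CPM stands for counts per 1e+06 of the normalised library size. The Kmt2d transcript, listed as Mll2, stood at 197, 211 and 171 CPM in the wild type and 254, 539 and 194 CPM in knockout libraries 1, 2 and 3 (edgeR quasi-likelihood test, adjusted p = 0.368), and a count over the whole gene does not check the deletion. All 10 palatal mesenchyme markers were detected well enough to test, at a summed 1569 to 1626 CPM in the wild type and 1729 to 2042 CPM in the knockout. Each result below is given with and without knockout replicate 2 where it matters.

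The gamma cluster carried most of the clustered protocadherin RNA of the palatal shelf. Summed over their members, gamma genes had 266 ± 4.84 CPM, beta genes 90.4 ± 7.13 CPM and alpha genes 7.16 ± 1.88 CPM in the wild type (SD, n = 3). Per kilobase of unshared exon, the median wild type level of a member was 2.34 CPM per kb in the gamma cluster, 0.854 in the beta cluster and 0.0496 in the alpha cluster. A single gene dominated each of the clusters with constant exons. Pcdhgc3 alone made up 45.1%, 40.04% and 43.4% of the gamma counts in wild type libraries 2, 3 and 4, and Pcdhac2 82.8%, 69.95% and 76.6% of the alpha counts. The 95% Wilson intervals of these shares, which cover counting error only, were 43.9% to 46.2%, 38.8% to 41.3% and 42.2% to 44.7% for Pcdhgc3. Those of Pcdhac2 were 76.96% to 87.4%, 63.3% to 75.8% and 68.4% to 83.2%.

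**Figure D1:**
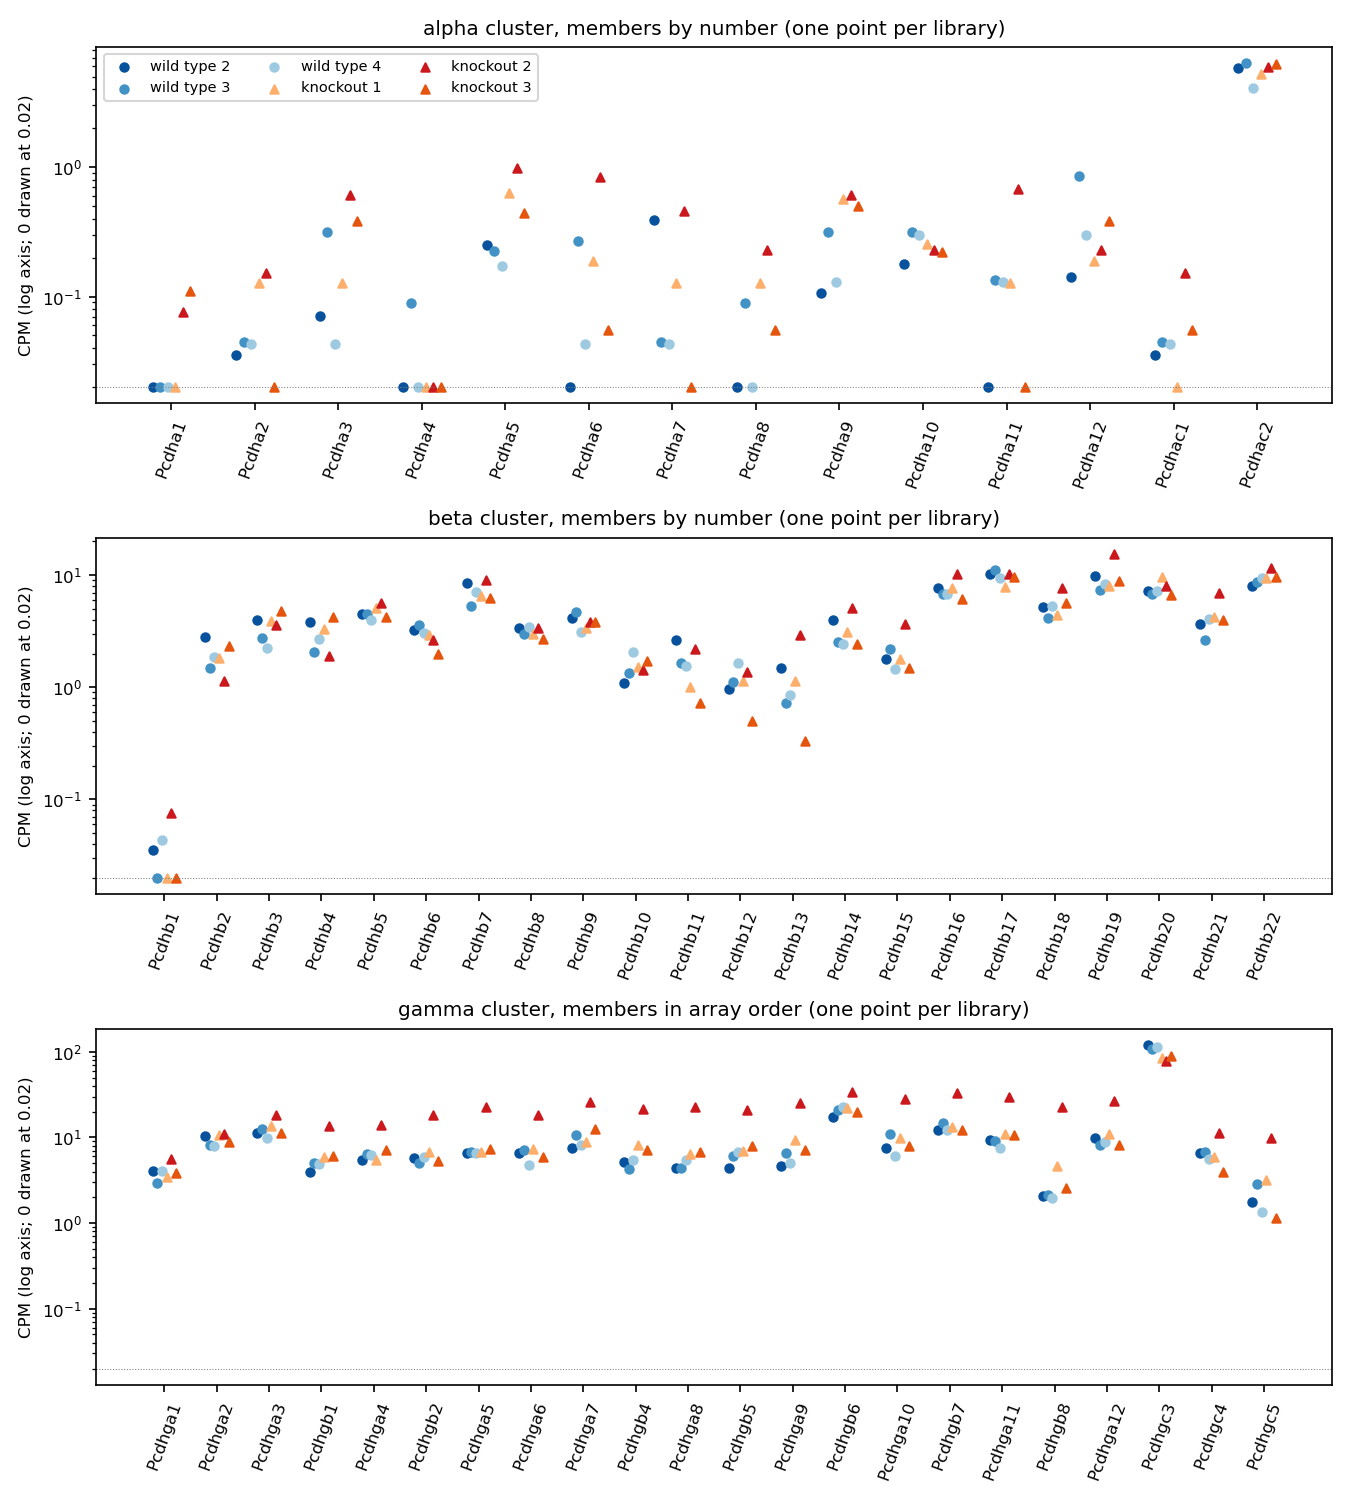
Level of each of the 58 clustered protocadherins in each library, in CPM on a log axis, with 1 panel per cluster, gamma members in array order and alpha and beta members by number (circles wild type, triangles knockout, values of 0 drawn at 0.02). Pcdhgc3 and Pcdhac2 tower over their clusters, and knockout replicate 2 is highest of the 6 libraries in 21 of 22 gamma members.

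Ranked by wild type level per kilobase, Pcdhgc3 came first at 44.3 ± 2.51 CPM per kb (SD, n = 3). It was followed by Pcdhgb6 at 7.90 ± 0.980, Pcdhgb7 at 5.01 ± 0.585 and Pcdhga3 at 4.33 ± 0.492 CPM per kb (SD, n = 3 each). These 4 were each separated from the next by more than 1 SD. Over the whole ranking, 49 of the 55 pairs of neighbours lay closer than the larger of their SDs. Below the top 4, only the gaps from Pcdhgb1 to Pcdhb22, at 1.65 SD, and from Pcdhb1 to Pcdha1, at 1.14 SD, were wider. The highest beta member was Pcdhb17, at 2.21 ± 0.172 CPM per kb (SD, n = 3). Pcdhac2 ranked 22 at 1.79 ± 0.393 CPM per kb (SD, n = 3), below 18 of the 22 gamma members.

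The test across all genes covered 14233 genes, of which 0.534% passed at an adjusted p of 0.05 (edgeR quasi-likelihood test, Benjamini-Hochberg). Of the 58 members, 44 passed the filter on low counts, 1 alpha, 21 beta and 22 gamma, and the 14 too low to test were 13 alpha members and Pcdhb1. None passed the adjusted threshold, 0 higher and 0 lower, where 0.0984% of all tested genes passed as higher and 0.436% as lower. At an unadjusted p under 0.05, 7 were higher and 1 lower in the knockout, where 7.51% of all tested genes were higher and 6.69% lower. These were 7 gamma A and B members and Pcdhgc3. DESeq2 called 2 members, Pcdhgc3 lower and Pcdhgb8 higher, while over all genes it called 1.13% higher and 2.28% lower. Voom with sample quality weights called Pcdhgc3 lower, with 0.773% of all genes higher and 1.45% lower, and limma voom without weights called 0 members. Without knockout replicate 2, Pcdhgc3 alone passed (edgeR quasi-likelihood test), making 0 members higher and 1 lower, where 0.554% of all genes passed as higher, 1.57% as lower and 2.12% in all. The median log2 fold change of the 44 tested members was 0.32 with 36 positive, against 0.011 over all genes with 51.5% positive. Without knockout replicate 2 it was 0.080 with 27 of 44 positive, against 0.016 with 53.3% positive and 46.7% negative.

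**Figure D2:**
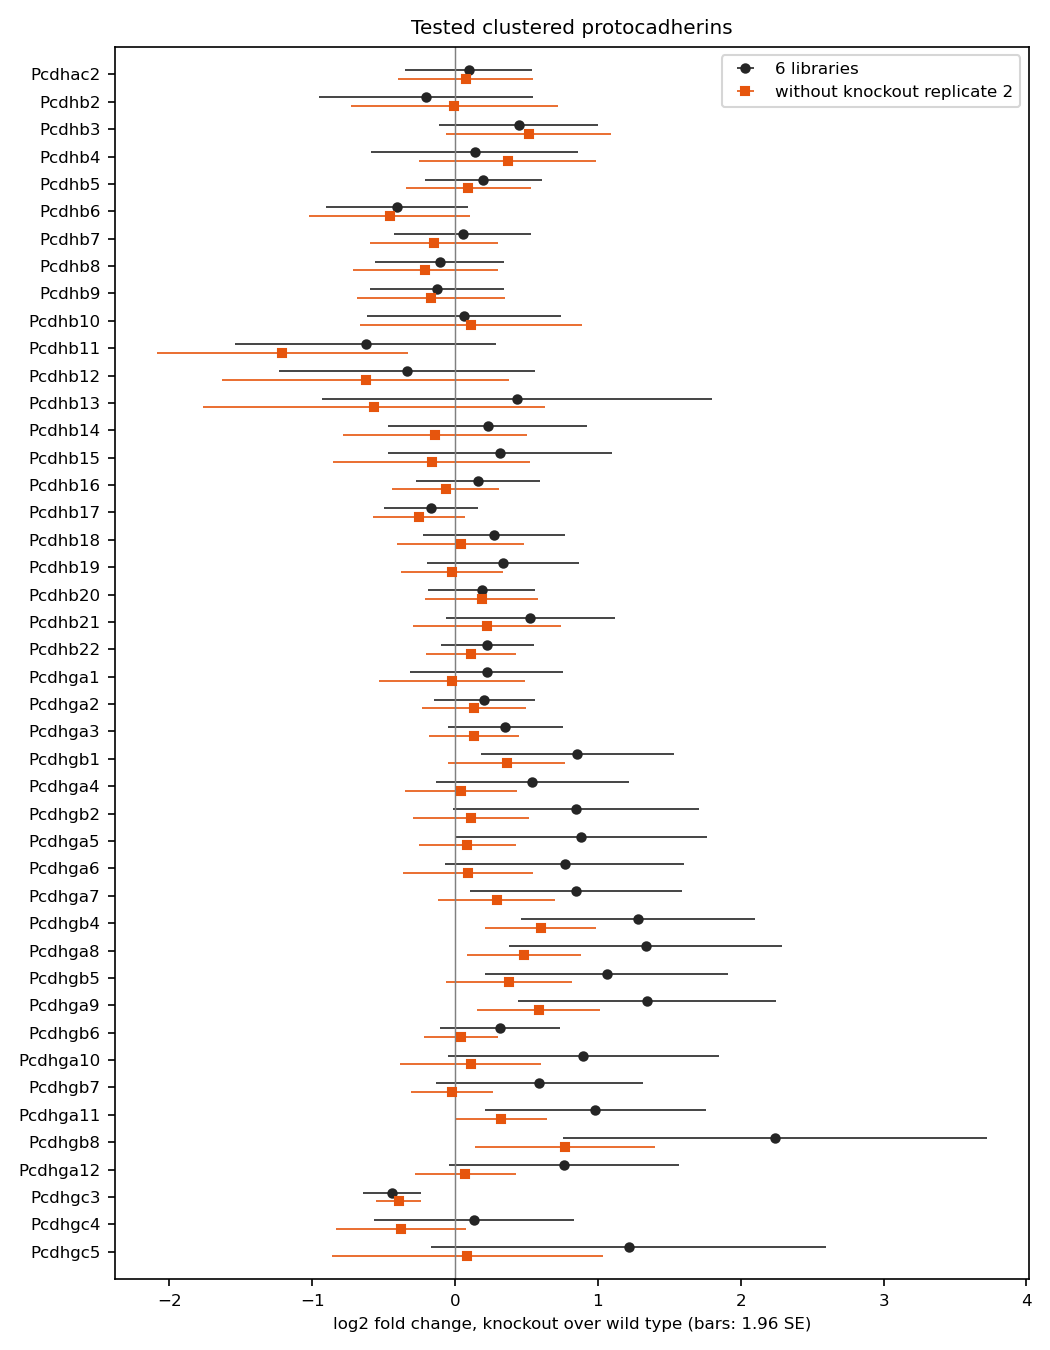
log2 fold change of knockout over wild type for the 44 tested members, with bars as 95% intervals, for all 6 libraries (black circles) and without knockout replicate 2 (orange squares). Most gamma members move towards 0 when that library is left out, whereas Pcdhgc3 stays at -0.39 with all 6 libraries at -0.44.

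Pcdhgc3 was lower in each of the knockout libraries. The protein it encodes is widely expressed outside neurons, for instance in astrocytes and choroid plexus, and binds Axin1, a scaffold of the WNT pathway. Its level was 121, 108 and 113 CPM in wild type libraries 2, 3 and 4 and 84.4, 77.1 and 89.8 CPM in knockout libraries 1, 2 and 3. The groups did not overlap, as was the case for 11.2% of all tested genes in this direction. The log2 fold change was -0.44 with a standard error of 0.10, a 1.36-fold lower level (edgeR quasi-likelihood test, adjusted p = 0.161). Without knockout replicate 2 it was -0.39 with a standard error of 0.079, and this passed (adjusted p = 0.0366). It also passed in DESeq2 (adjusted p = 0.00606) and in voom with sample quality weights (adjusted p = 0.0446). Over all 15 alternatives the log2 fold change lay between -0.495 and -0.394 and the adjusted p between 0.00606 and 0.575, the highest being that without wild type replicate 2.

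The share of Pcdhgc3 in the gamma counts was lower as well. It was 31.9% in knockout replicate 1 (95% Wilson interval 30.5% to 33.3%), 15.1% in replicate 2 (14.29% to 16%) and 35.4% in replicate 3 (34.0% to 36.8%). All of these lay below the lowest wild type share of 40.04%, and the low share of replicate 2 came with high counts of the other gamma members. The C-type members together stood at 129, 117 and 120 CPM in the wild type and 93.5, 98.1 and 94.9 CPM in the knockout, most of it Pcdhgc3 in every library.

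Markers of other cells in the shelf were also lower in sum. The 11 epithelial markers summed to 622 to 761 CPM in the wild type and to 562, 335 and 592 CPM in knockout libraries 1, 2 and 3. All 11 had a negative log2 fold change. Without knockout replicate 2, 2 of 11 had a positive one, Krt14 at 0.12 and Trp63 at 0.036. The 8 endothelial markers, all 8 with a negative log2 fold change, summed to 281 to 310 CPM and 217 to 253 CPM. The 7 macrophage markers summed to 45.2 to 51.4 CPM and 31.7 to 36.6 CPM but did not move together. Of these, 4 had a negative log2 fold change and 3 a positive one, namely Cd68, Fcgr1 and Itgam. Their sum fell mostly through Mrc1, with a mean of 24.9 CPM in the wild type and 12.1 CPM in the knockout. With 6 libraries the edgeR quasi-likelihood test called 0 of these markers. DESeq2 called 3 epithelial and 1 macrophage marker lower, against 2.28% of all genes. The edgeR test without knockout replicate 2 also called 3 epithelial and 1 macrophage marker lower, against 1.57% of all genes. Osteoblast markers summed to 1821 to 3202 CPM in the wild type and 735 to 1087 CPM in the knockout, mostly through Col1a1, the bone and connective tissue collagen. They did not move together either. Of the 6 tested, 3 had a negative log2 fold change and 3 a positive one, namely Runx2, Sp7 and Ibsp. Without knockout replicate 2, only Runx2 was positive. Col1a1 fell by 1.66 on the log2 scale (edgeR quasi-likelihood test, adjusted p = 0.0375, and 0.0814 without knockout replicate 2). Chondrocyte markers summed to 556 to 1596 CPM and 501 to 565 CPM, so their ranges overlapped. The part of these cells in the Pcdhgc3 difference was not tested. In whole tissue, fewer cells of a type and less RNA per cell cannot be told apart.

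**Figure D3:**
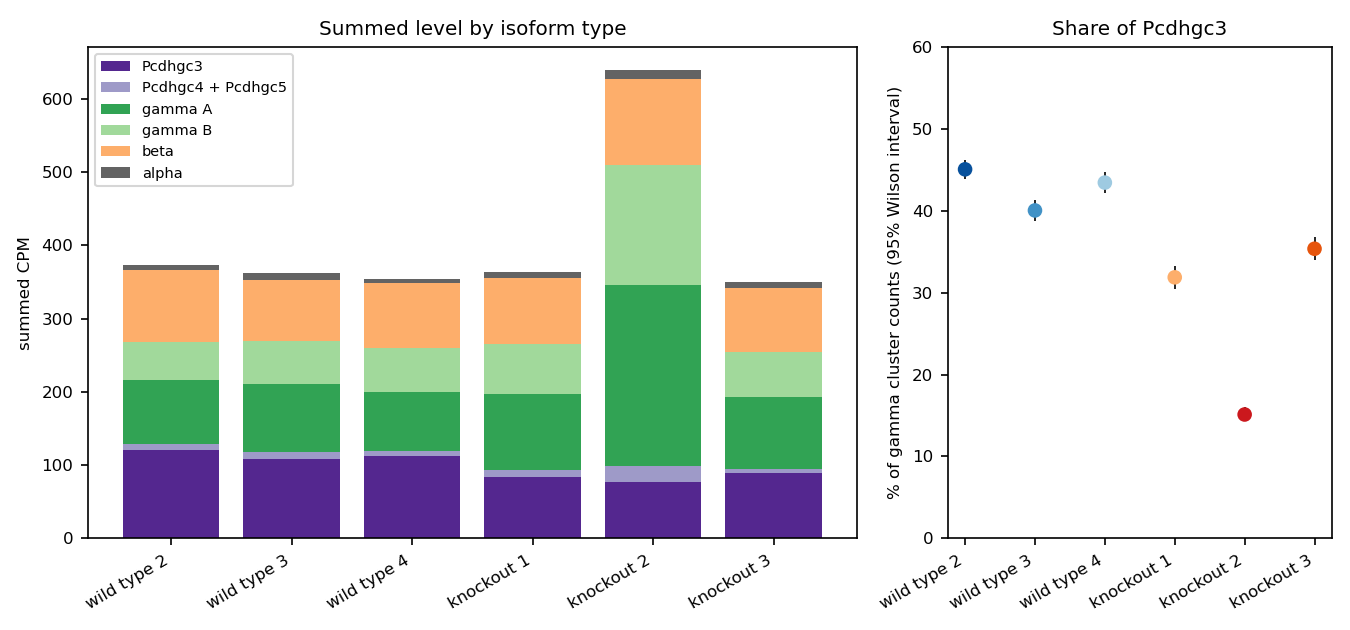
Left, summed CPM of the clustered protocadherins in each library, stacked by isoform type. Right, share of Pcdhgc3 in the gamma counts with 95% Wilson intervals. Knockout replicates 1 and 3 reach 363 and 350 CPM in all, like the wild type at 353.6 to 373 CPM, while knockout replicate 2 reaches 639 CPM.

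The remaining C-type gamma genes did not follow Pcdhgc3 with any precision. Pcdhgc4, which in mice is the isoform needed for survival of many neurons, stood at 6.66, 6.68 and 5.64 CPM in the wild type and 5.88, 11.1 and 3.98 CPM in knockout libraries 1, 2 and 3. Its log2 fold change of 0.13 (SE 0.36, edgeR quasi-likelihood test, adjusted p = 0.88) became -0.38 without knockout replicate 2 (adjusted p = 0.474). Pcdhgc5, an isoform of mature neurons, stood at 1.78, 2.87 and 1.33 CPM in the wild type and 3.16, 9.84 and 1.16 CPM in the knockout. Its knockout values span the wild type range on both sides, and its log2 fold change of 1.22 had a 95% interval from -0.17 to 2.60. It came to 0.088 once knockout replicate 2 was left out.

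The gamma A and gamma B members, 12 and 7 genes, were high in 1 knockout library above all. Gamma A members summed to 87.5, 93.6 and 80.5 CPM in wild type libraries 2, 3 and 4 and to 103, 249 and 97.7 CPM in knockout libraries 1, 2 and 3. Gamma B members summed to 51.0, 58.2 and 59.5 CPM in the wild type and to 67.95, 163 and 61.2 CPM in the knockout. The groups did not overlap in either sum, with knockout replicate 3 just above the highest wild type library. Each of the 19 genes had a positive log2 fold change, with medians of 0.81 for gamma A and 0.86 for gamma B, and 17 of 19 were positive without knockout replicate 2, with medians of 0.12 and 0.36. Knockout replicate 2 exceeded each of the other libraries more than 2-fold in 16 of 22 gamma members, which was so for 3.98% of all tested genes. None of the 21 tested beta genes met that measure. It was simply the highest of the 6 libraries in 21 of 22 gamma and 10 of 21 beta members, and in 34.7% of all tested genes.

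Pcdhgb8 had the largest log2 fold change among the tested members. It stood at 2.06, 2.15 and 1.98 CPM in wild type libraries 2, 3 and 4 and at 4.62, 22.6 and 2.54 CPM in knockout libraries 1, 2 and 3. All knockout values lay above the wild type, but they spread over a far wider range. The log2 fold change was 2.24 (SE 0.76, edgeR quasi-likelihood test, adjusted p = 0.292) and 0.77 (SE 0.32, adjusted p = 0.274) without knockout replicate 2. Only DESeq2, of the alternatives run, put it past the threshold (adjusted p = 0.0364).

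Pcdhga9 came second in the gamma cluster. Its values were 4.66, 6.59 and 5.08 CPM in the wild type and 9.30, 25.2 and 7.13 CPM in knockout libraries 1, 2 and 3, again without overlap. The log2 fold change was 1.34 (SE 0.46, edgeR quasi-likelihood test, adjusted p = 0.294) and 0.59 (SE 0.22, adjusted p = 0.229) without knockout replicate 2. In all, 8 gamma members had every knockout library above every wild type library, as did 12.3% of all tested genes. Without knockout replicate 2, 8 of 22 still did, against 18.4% of genes. At an unadjusted p under 0.05, 4 gamma members were higher without that library, where 7.22% of genes were higher and 9.27% lower, and the 4 were Pcdhga8, Pcdhga9, Pcdhgb4 and Pcdhgb8.

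The 3 gamma A and B members with the highest CPM had overlapping groups. Pcdhgb6 stood at 17.5, 20.9 and 22.4 CPM in the wild type and 22.2, 33.8 and 19.8 CPM in knockout libraries 1, 2 and 3, a log2 fold change of 0.31 with a 95% interval of -0.11 to 0.74. Pcdhgb7 stood at 12.1, 14.7 and 12.1 CPM and at 13.4, 33.2 and 12.4 CPM, and Pcdhga3 at 11.3, 12.5 and 9.95 CPM and at 13.6, 18.3 and 11.3 CPM. In these 3 genes, knockout libraries 1 and 3 lay in or close to the wild type range. Without knockout replicate 2 their log2 fold changes were 0.042, -0.020 and 0.13 (edgeR quasi-likelihood test, adjusted p = 0.746 to 0.968).

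**Figure D4:**
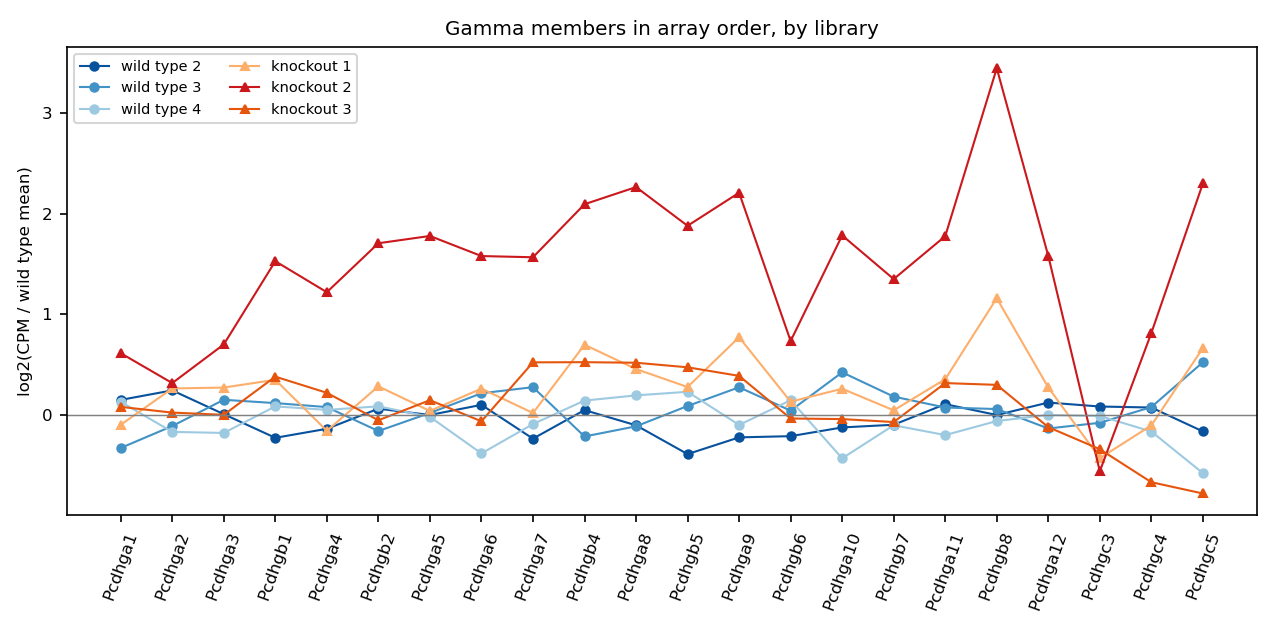
log2 ratio of each library's CPM to the wild type mean for the 22 gamma members in array order (circles wild type, triangles knockout). Knockout replicate 2 lies near the others at the first members of the array, is highest at Pcdhgb8, lies below 0 at Pcdhgc3 together with the other knockout libraries, and is above 0 again at Pcdhgc4 and Pcdhgc5.

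Among gamma A and B members, the excess in knockout replicate 2 was lowest at the first genes of the array, without a steady rise after them. Relative to the mean of knockout libraries 1 and 3, its CPM was 1.54-fold at Pcdhga1 and 1.13-fold at Pcdhga2, the first genes of the array. It was already 3.22-fold at Pcdhga5, at position 7, and 1.61-fold at Pcdhgb6, at position 14. At Pcdhga11, Pcdhgb8 and Pcdhga12, the last before the C-type genes, it was 2.72-fold, 6.30-fold and 2.81-fold. Over the 19 gamma A and B members, the log2 of this ratio had a Pearson correlation of 0.62 and a Spearman correlation of 0.549 with position in the array. With the wild type log2 CPM the correlations were -0.549 and -0.407. These describe genes that share the same libraries and sequence context, not replicates. Pcdhgc3, the next gene downstream, was at 0.886-fold, and Pcdhgc4 and Pcdhgc5 were at 2.26-fold and 4.55-fold. Over all 22 gamma members, the Pearson and Spearman correlations with position were 0.335 and 0.346.

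Knockout replicate 2 alone had a high share of reads outside annotated genes, and the part of that share in its gamma excess was not tested. Gene classes chosen after these values were seen are given beside them. They were not matched to the members in level or array structure. For 82 tested coding genes that lie inside an intron of another coding gene on the same strand, the median ratio of knockout replicate 2 to the mean of replicates 1 and 3 was 1.05. It was 0.727 for 320 tested single-exon genes, 0.989 over all tested genes, 2.75 for the gamma members and 1.23 for the beta members. The neuron markers, 17 genes, summed to 517 CPM in knockout replicate 2, 211 and 369 CPM in knockout libraries 1 and 3 and 273 to 425 CPM in the wild type.

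The beta cluster overlapped between the groups in its summed level. The beta members summed to 98.3, 84.5 and 88.3 CPM in wild type libraries 2, 3 and 4 and to 90.7, 118 and 87.9 CPM in knockout libraries 1, 2 and 3. In the middle of their range the log2 fold change was 0.16 (median), 14 of 21 being positive. That median was -0.064 without knockout replicate 2, 8 of 21 being positive. No beta member had an unadjusted p under 0.05 with all libraries (edgeR quasi-likelihood test, smallest adjusted p = 0.437).

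The beta genes nearest the gamma cluster carried most of its counts. Pcdhb16 to Pcdhb22 held 55.5% ± 2.48 of the beta counts in the wild type and 57.7% ± 1.53 in the knockout (SD, n = 3 each). These shares are not scaled to length. Per kilobase of unshared exon, Pcdhb7, outside this group, stood at 1.99 CPM per kb in the wild type. That was level with Pcdhb20 at 1.99 and above Pcdhb22 at 1.42 CPM per kb. The highest beta member by wild type CPM was Pcdhb17, with 10.2, 11.1 and 9.51 CPM in the wild type and 7.78, 10.1 and 9.56 CPM in knockout libraries 1, 2 and 3. Pcdhb22 stood at 7.94, 8.69 and 9.51 CPM and at 9.36, 11.7 and 9.56 CPM, and Pcdhb20 at 7.23, 6.77 and 7.28 CPM and at 9.68, 7.95 and 6.63 CPM. In each of these genes the groups differed by little more than their libraries did. The log2 fold change of Pcdhb17 was -0.17, and -0.25 without knockout replicate 2, and that of Pcdhb22 was 0.22, and 0.11 without it. Pcdhb19 was 9.75, 7.35 and 8.35 CPM in the wild type and 7.97, 15.4 and 8.89 CPM in the knockout, with only knockout replicate 2 outside the wild type range on the high side. Its log2 fold change was 0.34, and -0.021 without that library.

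The extremes of the beta cluster did not pass either. Pcdhb21 and Pcdhb3 had the largest positive log2 fold changes, 0.53 (SE 0.30) and 0.45 (SE 0.28), with adjusted p = 0.437 and 0.48 (edgeR quasi-likelihood test). These values were 0.22 and 0.52 without knockout replicate 2. Pcdhb11 had the most negative, with 2.63, 1.66 and 1.55 CPM in the wild type and 1.01, 2.20 and 0.718 CPM in knockout libraries 1, 2 and 3. Its log2 fold change of -0.63 (adjusted p = 0.542) was -1.21 without knockout replicate 2 (edgeR quasi-likelihood test, adjusted p = 0.222), the fit in which its groups did not overlap, as for 15.9% of all tested genes in this direction. Pcdhb6 stood at 3.28, 3.63 and 3.06 CPM in the wild type and 2.91, 2.65 and 1.99 CPM in the knockout, the single beta gene whose groups did not overlap with all libraries (log2 fold change -0.40, adjusted p = 0.476). Pcdhb1, the first beta gene, had 1, 0 and 1 counts in the wild type libraries against 0, 1 and 0 in those of the knockout, no more than 1 count in any library.

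In the alpha cluster Pcdhac2 was the single member with enough counts to test. In mice its protein is known for the spacing of serotonergic axons. It stood at 5.84, 6.36 and 4.09 CPM in wild type libraries 2, 3 and 4 and 5.25, 5.90 and 6.24 CPM in knockout libraries 1, 2 and 3. Its share of the alpha counts in those knockout libraries was 68.0%, 53.1% and 73.9%. The CPM of the groups overlapped, with a log2 fold change of 0.095 and a 95% interval of -0.35 to 0.54 (edgeR quasi-likelihood test, adjusted p = 0.865).

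The other alpha members were at the edge of detection. Pcdhac1 had at most 2 counts in any library. The 12 members without C in their symbol summed to 33, 60 and 28 counts in wild type libraries against 39, 67 and 39 in those of the knockout, or 1.18, 2.69 and 1.21 CPM against 2.47, 5.07 and 2.15 CPM. Knockout replicate 2 was highest and wild type replicate 3 next, so the groups overlapped. Pcdha5 had 7, 5 and 4 counts in wild type libraries against 10, 13 and 8 in those of the knockout, and Pcdha9 3, 7 and 3 against 9, 8 and 9. Pcdha12 had 4, 19 and 7 counts against 3, 3 and 7. In the fit with no filter on low counts, which tested all 58 members, 0 passed (edgeR quasi-likelihood test).

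Protocadherins encoded outside the clusters are single genes, each with its own promoter and complete coding sequence. Of the 12 listed, 12 were tested and 0 passed over all genes, while 6 were higher and 0 lower at an unadjusted p under 0.05 (edgeR quasi-likelihood test), against 7.51% and 6.69% of all tested genes. Their median log2 fold change was 0.56, and 0.24 without knockout replicate 2. DESeq2 called 3 higher, Pcdh17, Pcdh19 and Pcdh11x, against 1.13% of all genes. The edgeR test without knockout replicate 2 called Pcdh17 and Pcdh19 higher, against 0.554% of all genes. Voom with sample quality weights called the same 2, against 0.773%, and voom without weights called 0. With the replicate number as a block, Pcdh11x and Pcdh17 were called higher, as were 105 of 14233 genes. That fit carries little weight, since only numbers 2 and 3 occur in both groups and the numbers do not pair the samples. Pcdh17, which recruits the WAVE actin regulator to axon contacts, stood at 67.0, 59.2 and 66.6 CPM in the wild type and 88.5, 130 and 118 CPM in knockout libraries 1, 2 and 3. Its log2 fold change was 0.80 (SE 0.15, adjusted p = 0.0931), and 0.68 (adjusted p = 0.0243) without knockout replicate 2.

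Pcdh19, a partner of N-cadherin whose human counterpart is mutated in an epilepsy, stood at 65.7, 67.2 and 64.1 CPM in the wild type and 86.6, 127 and 90.2 CPM in the knockout. Its log2 fold change was 0.63 (SE 0.16, edgeR quasi-likelihood test, adjusted p = 0.19), and 0.42 (adjusted p = 0.0191) without knockout replicate 2. In both genes all knockout libraries lay above the wild type, also without that library. This was so for 6 of the 12 listed genes, against 12.3% of all tested genes. Without knockout replicate 2 it was again so for 6 of 12, against 18.4%. Pcdh18, with the highest count level of the list, was 227 to 265 CPM in the wild type and 245 to 278 CPM in the knockout (adjusted p = 0.718).

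**Figure D5:**
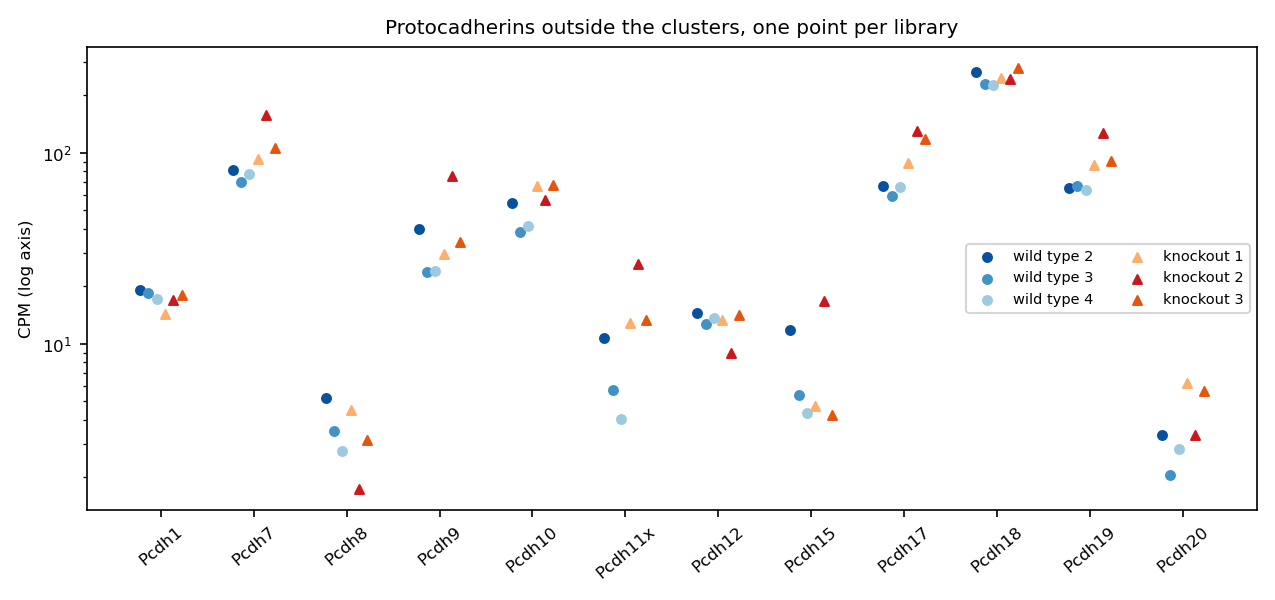
Level of the 12 protocadherins encoded outside the clusters in each library, in CPM on a log axis (circles wild type, triangles knockout). All knockout libraries lie above all wild type libraries in 6 of the 12, as in 12.3% of all tested genes. Pcdh17 and Pcdh19 are among them, at 88.5 to 130 CPM and 86.6 to 127 CPM in the knockout.

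None of the genes for factors that act on the clusters passed the test. Of 22 listed genes for CTCF, cohesin, its loaders, DNA methyltransferases and repressors such as SMCHD1, 21 were in the files and tested, and 0 passed over all genes or at an unadjusted p under 0.05 (edgeR quasi-likelihood test). Over all tested genes, 7.51% were higher and 6.69% lower at that unadjusted p. DESeq2 and voom called 0 of the listed genes as well. The median log2 fold change was 0.10, and 0.047 without knockout replicate 2. Most shifts were small but upward, with 19 of 21 positive, against 51.5% of all tested genes. Without knockout replicate 2, 14 of 21 were positive, against 53.3%. In 8 of 21, every knockout library lay above every wild type library, as in 12.3% of all tested genes. That number was also 8 without knockout replicate 2, against 18.4%. Ctcf stood at 133, 132 and 141 CPM in the wild type and 129, 146 and 144 CPM in the knockout. Mau2 and Nipbl, which load cohesin, had the smallest p of the list, with log2 fold changes of 0.33 and 0.43 (adjusted p = 0.358 and 0.371) that were 0.16 and 0.15 without knockout replicate 2.

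Of 18 genes for partner proteins of protocadherins, 0 passed over all genes. At an unadjusted p under 0.05, 1 was higher and 1 lower (edgeR quasi-likelihood test), against 7.51% and 6.69% of all tested genes. DESeq2 called 1 higher, Nlgn1, against 1.13% of all genes. Nlgn1, the postsynaptic adhesion protein neuroligin 1, stood at 9.36, 6.99 and 8.14 CPM in the wild type and 15.4, 28.99 and 11.9 CPM in knockout libraries 1, 2 and 3 (log2 fold change 1.19, adjusted p = 0.217, and 0.72 without knockout replicate 2). Ptk2b, the kinase PYK2 that protocadherin tails inhibit, stood at 1.25, 1.39 and 1.25 CPM and at 0.569, 0.757 and 0.663 CPM (adjusted p = 0.316). The groups overlapped in neither gene, as for 12.3% of all tested genes in the higher and 11.2% in the lower direction. Of the 18 listed genes, 1 was higher and 2 lower without overlap. The single call without knockout replicate 2 was Ret, a receptor tyrosine kinase that phosphorylates protocadherins, named here after its values were seen. Ret stood at 7.76, 7.57 and 7.88 CPM in the wild type and 1.52, 7.34 and 3.81 CPM in the knockout, with an adjusted p = 0.405 that became 0.038 without that library. In that fit, 1.57% of all genes were called lower.

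Among 21 tested cadherins of other kinds, 0 passed over all genes, and 4 were higher and 5 lower at an unadjusted p under 0.05 (edgeR quasi-likelihood test), against 7.51% and 6.69% of all tested genes. DESeq2 called 1 higher and 4 lower, against 1.13% and 2.28% of all genes. Cdh2, the N-cadherin of mesenchyme and neurons, stood at 135, 132 and 122 CPM in the wild type and 160, 184 and 180 CPM in the knockout, with an adjusted p = 0.172 that became 0.0476 without knockout replicate 2. Celsr1, a cadherin of epithelial planar polarity, stood at 96.4, 128 and 106 CPM and at 74.2, 49.8 and 73.2 CPM (adjusted p = 0.177, and 0.0346 without that library). Cdh1, the epithelial E-cadherin, joined them without knockout replicate 2, at 101, 123 and 120 CPM and at 73.3, 48.4 and 88.4 CPM (adjusted p = 0.248 with all libraries and 0.0484 without it). The fit without that library thus called 1 of these cadherins higher and 2 lower, against 0.554% and 1.57% of all genes.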

How the data were processed

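Each library has 1 deposited table of read-pair counts by gene symbol, made by the authors and neither normalised nor pooled. The submitters' processing notes list TopHat2, SAMtools, HTSeq and mm9, with no tool versions. What annotation, overlap mode and strand setting were used is not given in the sources used here. Each deposited table lists 23366 genes and 5 category lines, and the latter stayed out of library sizes and tests. Listed pairs outside annotated genes made up 12.3% to 47.5%. Pairs with several alignments made up 18.4%, 20.7% and 21.0% in wild type libraries 2, 3 and 4. In knockout libraries 1, 2 and 3 they made up 30.3%, 18.1% and 27.7%. Ambiguous pairs were 0.431%, 0.411% and 0.439% in the wild type and lower in each knockout library, at 0.273%, 0.168% and 0.329%. The effect of these differences on the counts of members was not tested.

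Library sizes were normalised by TMM, and CPM here means counts per normalised library size. Low genes were removed by filterByExpr. Groups came from the sample titles and were compared over all genes in edgeR (version 4.0.16, R 4.3.3) by the robust quasi-likelihood test of its current method, adjusted by Benjamini-Hochberg over 14233 genes at 0.05. Intervals of log2 fold changes are 95% normal intervals. Alternatives were other size factors, DESeq2 1.42.0, voom (limma 3.58.1), the earlier quasi-likelihood method, other filters, each library left out and the replicate number as a block, and, added after seeing the data, voom with quality weights. The fit was tested on simulated data. Libraries of a group differed by more than sampling noise (chi-square per degree of freedom 11 to 153). The labels name no batch and do not say whether libraries of a group came from separate embryos or pools, so p-values measure the spread between these libraries, which may be technical.

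The members and lists were chosen with earlier results of these data known. Members named were the C-type genes, the 4 highest by CPM in each cluster, the 2 largest and 2 most negative log2 fold changes, and from related lists the 2 smallest p values. Lengths came from GENCODE vM21. Marker lists for glia, red cells, bone and cartilage were also summed.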

Additional observations from a re-analysis of the deposited data

How the results depend on the processing

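The count of members past the threshold, 0 higher and 0 lower, was kept under median-of-ratios and upper-quartile size factors, voom, the earlier quasi-likelihood method and both other filters. It became 1 higher and 1 lower in DESeq2, 0 and 1 in voom with quality weights and 3 and 0 with the replicate block (Pcdhga8, Pcdhgb4 and Pcdhgb5), and ranged from 0 to 0 higher and 0 to 1 lower with single libraries left out. Genes past the threshold numbered 76, and 486 in DESeq2, 316 in voom with quality weights, 301 with the replicate block and 0 to 307 with single libraries left out. The replicate numbers do not pair the samples: only 2 and 3 are shared, and same-numbered libraries deviated together at 0.256 and -0.163. The gamma median of 0.85 was 0.24 in voom with quality weights and 0.11 to 1.06 with single libraries left out, and the beta median of 0.16 was -0.064 to 0.27 with single libraries left out. The alpha median of 0.095, which is Pcdhac2 alone, was 1.14 with no filter and 0.074 to 0.94 with single libraries left out, where 1 more alpha member was tested in some. The ratio of summed CPM, knockout over wild type, was 1.29 for gamma, 1.09 for beta and 1.27 for alpha, and 0.971, 0.982 and 1.12 without knockout replicate 2. Among single genes with no call, the sign reversed for Pcdhac2 with the replicate block (-0.0059) and for Pcdhgc4 in voom (-0.048) and voom with quality weights (-0.24). With single libraries left out, it ranged from -0.073 (wild type replicate 4) to 0.22 for Pcdhac2, and, lowest without knockout replicate 2, from -0.38 to 0.42 for Pcdhgc4, -0.021 to 0.51 for Pcdhb19 and -0.020 to 0.84 for Pcdhgb7. The cause was not tested. Alpha isoforms were limited by depth, at 0 to 19 counts per library apart from Pcdhac2.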

Other observations

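Glial and red cell marker lists are given as values. Glial precursor and Schwann cell markers summed to 74.3 to 78.3 CPM in the wild type and 58.3 to 82.8 CPM in the knockout, and red cell markers to 23.7 to 43.9 CPM and 13.4 to 47.7 CPM. The row for Pcdha4-g, an alpha entry outside the symbol rule, held 0 counts in all 6 libraries.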
